A study of Homo sapiens with 9 samples.

Results

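SNORD3A, SNORD3C, SNORD118 and SNORD13 encode the small nucleolar RNAs U3, U8 and U13, and were chosen as box C/D RNA genes that carry promoters of their own. They are 4 of 58425 genes to which the transcripts in the tables were matched by name, and all 4 were among the 18444 genes with enough reads to be tested. Reads of a gene were the summed estimated counts of its transcripts, and the 5 near-identical U3 copies (SNORD3A, SNORD3B-1, SNORD3B-2, SNORD3C and SNORD3D) were also added up as 1 quantity. In the tables the members are the transcripts ENST00000584923.1 (SNORD3A), ENST00000580533.1 (SNORD3C), ENST00000363593.1 (SNORD118) and ENST00000459299.1 (SNORD13).

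Box C/D RNAs carry the short boxes C and D, are bound by fibrillarin, NOP56, NOP58 and SNU13, and mostly guide the methylation of ribosomal RNA. Most of them are cut out of introns of host genes, whereas U3, U8 and U13 are transcribed by RNA polymerase II from small nuclear RNA-type promoters and receive a cap. U3 binds the precursor of the small ribosomal subunit within the processome, U8 is needed for maturation of the RNAs of the large subunit, and U13 guides acetylation of small-subunit RNA by NAT10. Dyskerin and GAR1 belong to the other class, the box H/ACA particles, whose guide RNAs (SNORA genes) direct pseudouridylation.

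The series measured nuclear RNA of U2OS cells, an established human osteosarcoma line, by total RNA sequencing after removal of ribosomal RNA. Cells were transfected with 15 nM siRNA for 48 h, with siDyskerin (against DKC1, which encodes dyskerin), siGAR1 (against GAR1) or the nontargeting siControl, and each group had 3 biological replicates in a single cell line. Both knockdowns were set against siControl and against each other, which asks how RNAs outside the H/ACA class behaved once an H/ACA protein was depleted. In bulk RNA, fewer cells with a transcript and less of it per cell cannot be told apart.

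The U3 copies are shown first because they differ by few bases, which bears on the copy to which a read can be assigned. U3 from SNORD3A covers the first 217 bases of the gene, on the plus strand at chr17:19188016-19188232 of GRCh38. Capitals mark the 4 positions at which another copy differs, counted from 1 at the 5′ end.
SNORD3A, bases 1 to 217: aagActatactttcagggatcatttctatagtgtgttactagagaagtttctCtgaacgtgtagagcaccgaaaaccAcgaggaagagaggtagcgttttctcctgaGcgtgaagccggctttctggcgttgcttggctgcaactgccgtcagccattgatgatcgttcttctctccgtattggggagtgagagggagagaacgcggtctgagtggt

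The stretch from base 49 to base 112 holds 3 of these positions and is given for the other copies, with the same positions in capitals.
SNORD3C, chr17:19190134-19190197, minus strand: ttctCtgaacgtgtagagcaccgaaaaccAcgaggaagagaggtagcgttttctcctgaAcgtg
SNORD3B-1, chr17:19061960-19062023, plus strand: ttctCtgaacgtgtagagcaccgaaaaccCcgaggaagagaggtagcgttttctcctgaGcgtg
SNORD3B-2, chr17:19064025-19064088, minus strand: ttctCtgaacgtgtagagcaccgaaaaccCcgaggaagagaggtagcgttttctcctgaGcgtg
SNORD3D, chr17:19112525-19112588, minus strand: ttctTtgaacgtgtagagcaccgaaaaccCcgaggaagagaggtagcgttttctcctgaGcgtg

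Within the 217 bases, SNORD3C differed from SNORD3A by G108A alone, SNORD3B-1 and SNORD3B-2 by A78C, and SNORD3D by A4G, C53T and A78C. The annotated transcripts run past U3, to 699 bases in SNORD3A (chr17:19188016-19188714) and 581 bases in SNORD3C (chr17:19189665-19190245). Over those 581 bases G108A was the only difference between them. Of the 532 stretches of 50 bases (the read length) in SNORD3C, 482 also occurred in SNORD3A, and the remaining 50 occurred in SNORD3C alone. SNORD3A held 650 such stretches, of which 46 occurred in no other gene of the annotation and 61 in all 5 copies. Stretches found in SNORD3C alone were thus those that hold base 108, whereas SNORD3A could also be told from SNORD3C by stretches that reach past base 581. The sum over copies does not depend on how reads were divided between the 5 copies as counted. It can still depend on reads assigned to other records, such as the gene ENSG00000262202, which shares such stretches with each copy. A second SNORD3D record is also left out of the sum.

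SNORD118, the U8 gene, is shown whole because a host transcript contains it. It lies at chr17:8173454-8173587 on the minus strand, inside an exon of the TMEM107 gene on the same strand. Capitals mark the box C and box D letters TGATGA and CTGA, searched on the RNA strand only.
SNORD118, bases 1 to 134: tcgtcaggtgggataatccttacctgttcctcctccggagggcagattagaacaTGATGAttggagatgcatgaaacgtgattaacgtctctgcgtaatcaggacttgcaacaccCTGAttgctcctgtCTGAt

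In U8 the TGATGA match began at base 55 and the CTGA matches at bases 116 and 130. In the 217 bases of U3, TGATGA was found at base 158 and CTGA at bases 53, 104 and 209. The CTGA at base 104 ends next to position 108, where SNORD3A and SNORD3C differ, and C53T of SNORD3D falls on the first base of the CTGA at base 53. In U13 (104 bases) TGATGA began at base 23 and CTGA at base 99. Both letter strings were present in 72.2% of 306 other SNORD transcripts, TGATGA in 73.2% and CTGA in 96.7%. All 85 stretches of 50 bases in U8 also occurred in TMEM107, whereas all 55 stretches of U13 occurred in SNORD13 alone.

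The libraries held 48838756 to 90698675 reads. DKC1 fell in siDyskerin (log2 fold change -2.79, adjusted p = 1.46e-11), and GAR1 fell in siGAR1 (-2.68, adjusted p = 6.12e-08, edgeR's quasi-likelihood test with Benjamini-Hochberg adjustment). Of the mesenchymal and osteoblast genes checked, VIM had 189500 to 239900, RUNX2 940.8 to 1402 and COL1A1 1765 to 2810 normalized reads, and of the epithelial genes CDH1 and EPCAM stayed at or under 278.1, while KRT8 had 34770 to 52680. SPP1, another osteoblast gene, had 1566 to 1840 normalized reads in siDyskerin and 696.2 to 765.2 in siGAR1, against 502.8 to 672.5 in siControl, and its part in the member values was not tested. Normalized reads are reads scaled to the mean library size after trimmed-mean (TMM) normalization.

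Per length, U3 was by far the most abundant of the 3 RNAs. SNORD3A averaged 2105 ± 83.7 TPM (reads corrected for transcript length and scaled to the library) in siDyskerin, 3336 ± 963 in siGAR1 and 2415 ± 358 in siControl (SD, n = 3 each), and ranked 11th by mean TPM among 200401 transcripts. SNORD3C averaged 146 ± 18.9 TPM in siDyskerin, 201 ± 35.8 in siGAR1 and 268 ± 202 in siControl, and ranked 348th. SNORD13 had 17.0 ± 7.77, 29.4 ± 21.3 and 21.6 ± 4.18 TPM in siDyskerin, siGAR1 and siControl, and SNORD118 had 6.74 ± 3.61, 11.7 ± 3.85 and 4.77 ± 1.21 TPM in the same groups. Every SNORD13 value was above every SNORD118 value in siDyskerin (12.5 to 26.0 against 4.23 to 10.9 TPM) and in siControl (17.5 to 25.8 against 3.38 to 5.59 TPM), whereas the ranges overlapped in siGAR1 (13.1 to 53.5 against 7.80 to 15.5 TPM). The TPM values of SNORD3A and SNORD3C rest on effective lengths of 342.8 to 366.6 and 276.3 to 293.1 bases, from records of 699 and 581 bases. U3 itself covers 217 bases, so its TPM, its ranks and its distance from U8 and U13 depend on these annotated lengths. For the 2 short transcripts the TPM values rest on effective lengths of only 38 to 40 bases in SNORD118 and 24 to 25 bases in SNORD13, as deposited. Against a GENCODE transcript of 134 bases for U8 and a RefSeq length of 137 bases, few reads were found, 9 to 44 per library, and the retention of such short RNAs in these libraries was not tested.

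No member passed the test in any of the 3 comparisons, which required an adjusted p below 0.01. Among all genes tested, 3.08% passed with a higher and 3.32% with a lower level in siDyskerin than in siControl, and 0.938% passed and also differed by more than 1 on the log2 scale. For siGAR1 against siControl these shares were 1.63% higher, 1.79% lower and 0.282% past both limits, and for siDyskerin against siGAR1 they were 2.61%, 2.78% and 0.721%. With DESeq2 none of the 4 members passed either, and SNORD118 received no adjusted p there in either comparison with siGAR1. At an unadjusted p below 0.05 stood 0, 2 and 1 of the 4 members in siDyskerin against siControl, siGAR1 against siControl, and siDyskerin against siGAR1, the 2 being SNORD3A and SNORD118 and the 1 being SNORD3A. Of all 18444 genes tested, 4813, 4431 and 4707 stood below that limit in the same comparisons, so that so few members do not set the part apart.

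**Figure D1:**
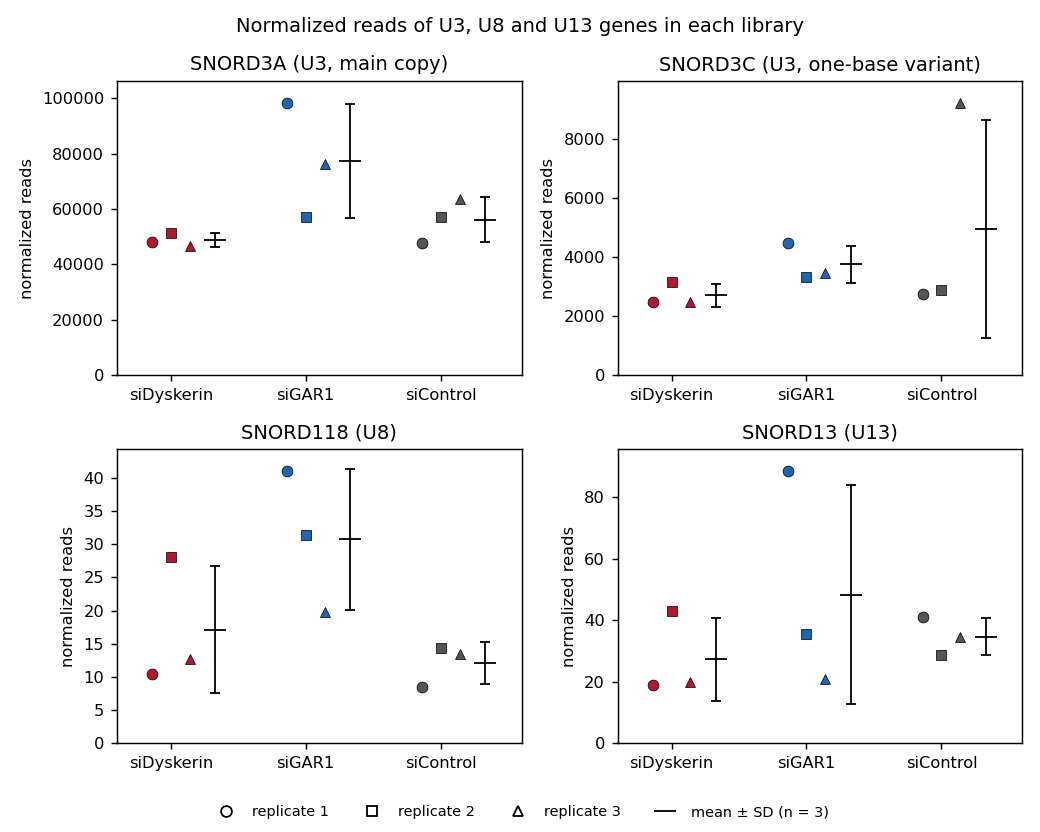
Normalized reads (linear axis from 0) of SNORD3A, SNORD3C, SNORD118 and SNORD13 in the 9 libraries, by group, with one symbol per replicate and the mean ± SD (n = 3) beside each group. siGAR1 replicate 1 is the highest library for SNORD3A, SNORD118 and SNORD13, and siControl replicate 3 (9241 normalized reads) stands above all others for SNORD3C.

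SNORD3A had 48120, 51470 and 46650 normalized reads in siDyskerin, 98290, 57200 and 76280 in siGAR1, and 47750, 57070 and 63780 in siControl. The siDyskerin libraries lay below all siGAR1 libraries and overlapped siControl, and the siGAR1 libraries overlapped siControl, since siControl replicate 3 was above siGAR1 replicate 2. Between siDyskerin and siGAR1 the log2 fold change was -0.66 (SE 0.150, 95% interval -0.96 to -0.37, adjusted p = 0.011), just outside the threshold. It was 0.46 (0.17 to 0.75, adjusted p = 0.0752) in siGAR1 against siControl and -0.21 (-0.50 to 0.09, adjusted p = 0.432) in siDyskerin against siControl. Without siGAR1 replicate 1 the values were -0.45 (adjusted p = 0.0374) for siDyskerin against siGAR1 and 0.24 (0.294) for siGAR1 against siControl. Without siGAR1 replicate 2 they passed, at -0.84 (0.00116) and 0.63 (0.00947). The value for siDyskerin against siGAR1 also passed without siControl replicate 1, at -0.67 (0.00868). Leaving out a single library could thus move SNORD3A across the threshold. Against siControl, the siDyskerin value was -0.32 without siControl replicate 1 and -0.11 without siControl replicate 3, and neither passed.

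The summed U3 copies followed SNORD3A, which supplied most of their reads. They had 50690, 54720 and 49240 normalized reads in siDyskerin, 102900, 60650 and 79880 in siGAR1, and 50630, 60060 and 73160 in siControl. The log2 fold change was -0.65 (-0.96 to -0.35, adjusted p = 0.013) in siDyskerin against siGAR1, 0.41 (0.10 to 0.71, adjusted p = 0.119) in siGAR1 against siControl, and -0.25 (-0.55 to 0.05, adjusted p = 0.337) in siDyskerin against siControl. Adding up the copies moved no call. Without siGAR1 replicate 1 the value was -0.45 (adjusted p = 0.0586) in siDyskerin against siGAR1 and 0.19 (0.472) in siGAR1 against siControl. Without siGAR1 replicate 2 siDyskerin against siGAR1 passed, at -0.83 (0.00203). In siDyskerin against siControl the value was -0.38 (0.156) without siControl replicate 1 and -0.11 (0.753) without siControl replicate 3.

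SNORD3C stood apart in 1 library. It had 2486, 3171 and 2495 normalized reads in siDyskerin, 4497, 3332 and 3463 in siGAR1, and 2772, 2888 and 9241 in siControl. With siControl replicate 3 the log2 fold changes against siControl were -0.86 (-1.76 to 0.04, adjusted p = 0.294) in siDyskerin and -0.39 (-1.29 to 0.50, adjusted p = 0.66) in siGAR1. Without that library they were -0.06 (adjusted p = 0.845) and 0.40 (adjusted p = 0.118), so that the siGAR1 value changed sign. With siControl replicate 3 kept, the siGAR1 value was -0.69 without siControl replicate 1, -0.68 without siControl replicate 2 and -0.55 without siGAR1 replicate 1, and none of these passed. The siDyskerin libraries were all below the siGAR1 libraries, with a log2 fold change of -0.47 (-1.37 to 0.43, adjusted p = 0.588).

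Within the U3 reads, SNORD3C took 4.90, 5.795 and 5.07% in siDyskerin, 4.37, 5.49 and 4.34% in siGAR1, and 5.48, 4.81 and 12.6% in siControl. Per 100 reads of SNORD3A there were 4.54 to 6.16 reads of SNORD3C in 8 libraries and 14.5 in siControl replicate 3. SNORD3A took 87.2% of the U3 reads in that library and 94.1 to 95.5% elsewhere, and its normalized reads there (63780) were the highest of the siControl group. The reads themselves were not analysed here, and whether the excess carried the base that separates both genes was not tested.

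**Figure D2:**
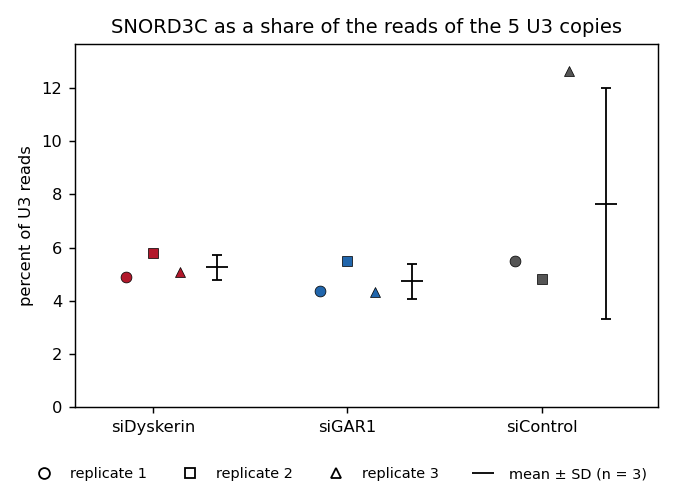
Reads of SNORD3C as a percentage (linear axis from 0) of the reads of the 5 U3 copies, in 3 libraries per group, with the mean ± SD beside each group. In 8 libraries the share was 4.34 to 5.795%, and in siControl replicate 3 it was 12.6%.

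The other U3 copies were near the lower end of what could be measured. Over the 9 libraries SNORD3B-1 had 11 to 25 reads, SNORD3B-2 15 to 54 and SNORD3D 39 to 98. SNORD3D is annotated as 2 overlapping records with nearly equal counts, of which only the larger was used here and in the sum. Whether both records hold the same reads, or reads divided between them, was not tested. Their log2 fold changes for siDyskerin against siGAR1 were -0.71 (adjusted p = 0.177) in SNORD3B-1, -0.76 (0.141) in SNORD3B-2 and -0.62 (0.134) in the larger SNORD3D record. Together with SNORD3A and SNORD3C, all copies had a value below 0 in this comparison and none passed. A further 55 annotated U3-like genes had 192 reads in all over the 9 libraries, 158 of them in 1 gene. The 22 U8-like genes had 0 reads and the 4 U13-like genes had 1.

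SNORD118 had 10.5, 28.1 and 12.7 normalized reads in siDyskerin, 41.1, 31.4 and 19.8 in siGAR1, and 8.51, 14.4 and 13.5 in siControl. Every siGAR1 library was above every siControl library, while siDyskerin replicate 2 lay among the siGAR1 libraries and the other 2 siDyskerin libraries among siControl. The log2 fold change in siGAR1 against siControl was 1.37 (SE 0.410, 0.57 to 2.18, adjusted p = 0.0527), the largest difference of any member, and it did not pass. Without siGAR1 replicate 1 it was 1.09 (adjusted p = 0.209). In siDyskerin the log2 fold change was 0.55 against siControl (-0.30 to 1.41, adjusted p = 0.477) and -0.82 against siGAR1 (-1.59 to -0.05, adjusted p = 0.209). The second interval leaves out 0 although the quasi-likelihood test gave an unadjusted p of 0.0556, since the normal intervals are narrower than that test allows. Without siDyskerin replicate 2 these were -0.067 (adjusted p = 0.958) and -1.43 (0.0588), so that the first changed sign. The value against siControl was 0.32 (0.768) without siControl replicate 1, and that against siGAR1 was -0.54 (0.506) without siDyskerin replicate 1 and -0.56 (0.538) without siGAR1 replicate 1. These values rest on few reads: 44 in the siGAR1 library with most (95% Poisson interval 32.0 to 59.1) and 11 in siControl replicate 1 (5.49 to 19.7), where the intervals cover counting error only.

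Since U8 lies inside an exon of TMEM107, which encodes a membrane protein of the ciliary transition zone, its reads were compared with those of the host transcript. The TMEM107 transcript of 1210 bases that contains U8 had more reads than SNORD118 in all libraries. Unscaled, these were 58, 110 and 49 in siDyskerin, 135, 107 and 83 in siGAR1, and 107, 99 and 64 in siControl. Subtracting the U8 reads assumes that a read within U8 was counted in both records, which was not tested. After subtraction of the U8 reads it had 44.7, 68.4 and 56.6 normalized reads in siDyskerin, 84.9, 76.9 and 82.7 in siGAR1, and 74.3, 74.5 and 65.2 in siControl. The means were 56.6 ± 11.8, 81.5 ± 4.16 and 71.3 ± 5.34 (SD, n = 3 each), so that the host transcript also had its highest values in siGAR1, by a smaller margin than U8 relative to siControl.

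The 7 TMEM107 transcripts that do not overlap U8 had 115.1, 105.2 and 131.7 normalized reads in siDyskerin, 130.7, 128.5 and 156.7 in siGAR1, and 175.6, 177.8 and 170.9 in siControl. Here both knockdowns were below every siControl library, with log2 fold changes of -0.58 (adjusted p = 0.0148) in siDyskerin and -0.34 (adjusted p = 0.157) in siGAR1, a choice of transcripts made after the data had been seen. The whole TMEM107 gene had -0.47 (adjusted p = 0.0153) and -0.10 (adjusted p = 0.66). Reads within U8 cannot be told apart from reads of the host transcript, because both lie on 1 strand and share all their bases there.

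**Figure D3:**
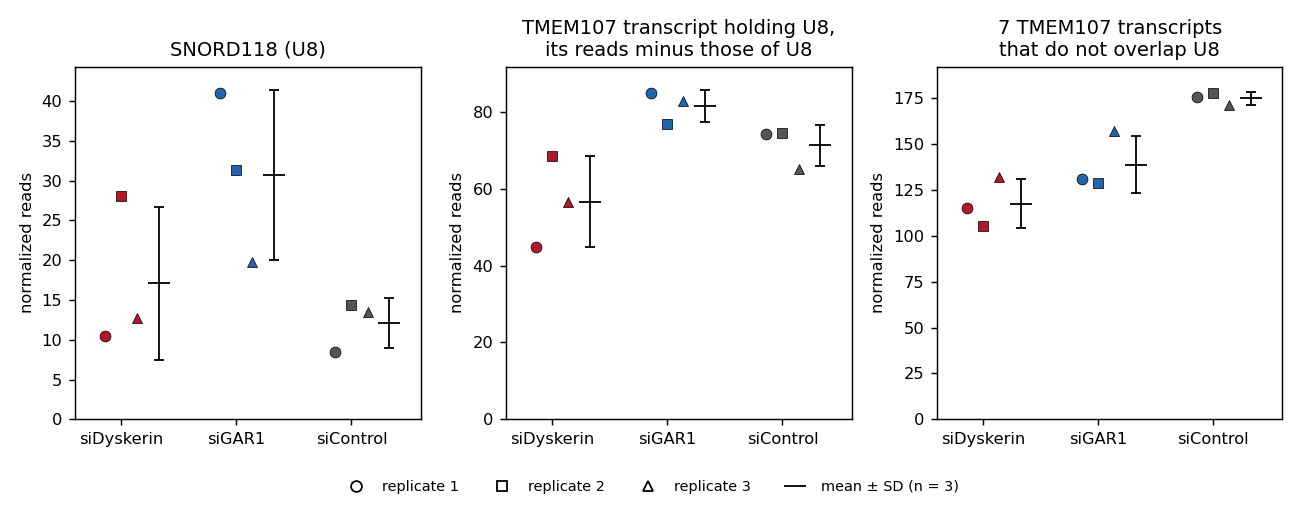
Normalized reads (linear axes from 0) of SNORD118, of the TMEM107 transcript that holds U8 after subtraction of the U8 reads, and of 7 TMEM107 transcripts that do not overlap U8, in 3 libraries per group with mean ± SD. The host transcript averaged 56.6 in siDyskerin, 81.5 in siGAR1 and 71.3 in siControl, and the 7 other transcripts 117.3, 138.6 and 174.8. The subtraction assumes that reads within U8 were counted in both records, which was not tested.

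SNORD13 had 19.0, 43.0 and 19.8 normalized reads in siDyskerin, 88.7, 35.4 and 21.0 in siGAR1, and 41.0, 28.7 and 34.4 in siControl. The gene lies on the plus strand at chr8:33513475-33513578 (GRCh38). The groups overlapped, and the siGAR1 libraries alone spanned the whole range of siControl. The log2 fold change was -0.32 (-1.23 to 0.60, adjusted p = 0.739) in siDyskerin against siControl, 0.50 (-0.36 to 1.36, adjusted p = 0.532) in siGAR1 against siControl, and -0.82 (-1.71 to 0.07, adjusted p = 0.287) in siDyskerin against siGAR1. Without siGAR1 replicate 1, in which 95 reads were counted (95% Poisson interval 76.9 to 116.1), the siGAR1 value against siControl was -0.29 (adjusted p = 0.736) and siDyskerin against siGAR1 was -0.033 (0.977). Without siGAR1 replicate 3 siGAR1 had 0.83 (0.237) against siControl, and without siDyskerin replicate 2 siDyskerin stood at -1.35 (0.145) against siGAR1 and -0.85 (0.401) against siControl. In siDyskerin against siControl, the omission of siDyskerin replicate 1 or 3 or siControl replicate 1 gave -0.10, -0.17 and -0.17. The gene TTI2, which encodes a partner of TELO2 and begins within 2 kb on the opposite strand, had -0.31 (adjusted p = 0.0175) in siDyskerin and -0.03 (adjusted p = 0.879) in siGAR1, each against siControl.

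The library siGAR1 replicate 1 was also high for other box C/D RNAs. Other SNORD genes numbered 289 by symbol, and 23 gene records of them were tested, with SNORD22 present in separate records. Each record is counted as a gene here and below. In 21 of the 23 this library had the highest normalized reads of all 9. Their sum was 1575, 1090 and 1010 in siGAR1, against 838.7, 1003 and 843.9 in siDyskerin and 1030, 1059 and 1040 in siControl.

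Of the 23 other SNORD genes, 0 passed in any comparison. Their median log2 fold change was -0.30 in siDyskerin against siControl, 0.32 in siGAR1 against siControl and -0.65 in siDyskerin against siGAR1, and the medians of the 4 members were -0.26, 0.48 and -0.74. Over all genes tested the medians were 0.00, 0.01 and -0.00. In siDyskerin against siGAR1 all 23 other SNORD genes and all 4 members had values below 0. Because both comparisons with siControl share its 3 libraries, these values are not separate observations.

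Set against the summed reads of the 23 other SNORD genes, SNORD3A had ratios of 57.4, 51.3 and 55.3 in siDyskerin, 62.4, 52.5 and 75.6 in siGAR1, and 46.4, 53.9 and 61.3 in siControl. The groups overlapped in each pair (exact permutation test, two-sided, p = 0.9 for siDyskerin against siControl, 0.4 for siGAR1 against siControl and 0.3 for siDyskerin against siGAR1). SNORD118 averaged 0.0185 ± 0.0083 reads per read of these genes in siDyskerin, 0.0248 ± 0.0047 in siGAR1 and 0.0116 ± 0.0029 in siControl (SD, n = 3 each). Its siGAR1 ratios remained above all siControl ratios (exact permutation p = 0.1, the smallest that 3 against 3 libraries can give).

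The contrast with the H/ACA guide RNAs was wide. SNORA genes numbered 152 by symbol, and 64 gene records of them were tested, with SNORA16A and SNORA17B each present in separate records. In siDyskerin against siControl 39 of the 64 fell, with a median log2 fold change of -1.46 over the 64 and no value above -0.61. In siGAR1 against siControl 0 of 64 passed, with a median of 0.15, and in siDyskerin against siGAR1 49 fell, with a median of -1.58. Reads of SNORD3A per read of the 64 SNORA genes were 5.86, 5.27 and 5.42 in siDyskerin, 3.87, 3.31 and 3.88 in siGAR1, and 1.99, 2.52 and 2.47 in siControl. The siDyskerin ratio was 2.37 times that of siControl and the siGAR1 ratio 1.58 times (exact permutation p = 0.1 each, the smallest possible). For siDyskerin this is no test of U3, because the SNORA genes in the denominator were already known to fall there. SNORD3A itself had a log2 fold change of -0.21 in siDyskerin against siControl. This denominator is weighted towards SNORA73A and SNORA73B, which held 37.5 and 36.2% of its reads and whose log2 fold changes in siGAR1 against siControl were -0.52 and -0.16.

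**Figure D4:**
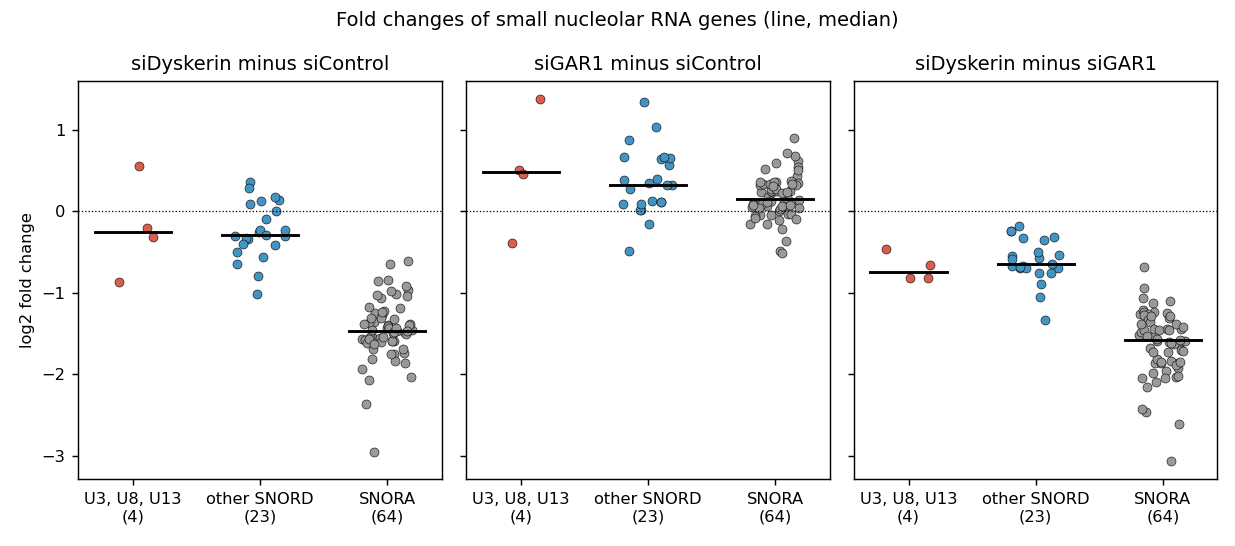
Log2 fold changes (vertical axis) of the 4 U3, U8 and U13 genes, 23 other SNORD genes and 64 SNORA genes in the 3 comparisons, with 1 point per gene record and a line at the median. In siDyskerin against siControl the medians were -0.26, -0.30 and -1.46, and in siDyskerin against siGAR1 they were -0.74, -0.65 and -1.58.

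The choice of genes to which the libraries were scaled moved the values of all genes. With TMM factors taken from 197 short noncoding RNA genes in place of all genes, of which 64 were SNORA and 27 SNORD genes, SNORD3A had log2 fold changes of 0.22 in siDyskerin against siControl, 0.22 in siGAR1 against siControl and 0.00 in siDyskerin against siGAR1. SNORD118 had 0.89, 1.11 and -0.22 on that scale, and none of these values passed. The scaling moved the median of all genes by 0.42, -0.22 and 0.64 in the 3 comparisons, and relative to the median of all genes SNORD3A stood at -0.20, 0.42 and -0.63, close to its values with factors from all genes (-0.21, 0.46 and -0.66). It turned the share of passing genes that were higher to 96.6, 13.5 and 99.3%, against 48.1, 47.6 and 48.4% with factors from all genes. Short noncoding RNA genes of 500 bases or less numbered 5096 and made up 1.31 to 1.61% of the reads of a library. SNORD3A is annotated at 699 bases and lies outside this class, so its value is a ratio and not a share. Set against the reads of the class, SNORD3A had 4.92 ± 0.515% in siDyskerin, 7.48 ± 2.77% in siGAR1 and 5.59 ± 0.604% in siControl (SD, n = 3 each, exact permutation p = 0.3 in each pair). Records of 7SK and of RN7SL supplied most of the reads of the class.

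**Figure D5:**
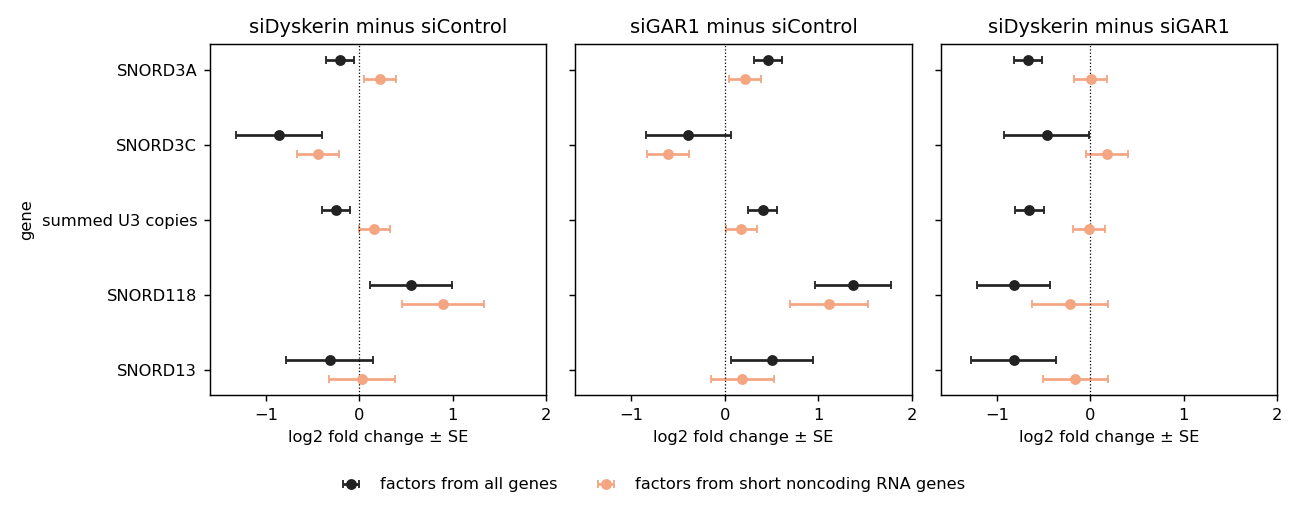
Log2 fold change ± SE (horizontal axis) of SNORD3A, SNORD3C, the summed U3 copies, SNORD118 and SNORD13 in the 3 comparisons, with TMM factors from all genes and from short noncoding RNA genes. For SNORD3A the value in siDyskerin against siGAR1 was -0.66 with the first and 0.00 with the second, and SNORD118 was above 0 against siControl with both.

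Genes named from the lists that follow are to be read beside the shares of all genes tested that passed. These were 3.08% higher and 3.32% lower in siDyskerin against siControl, 1.63 and 1.79% in siGAR1 against siControl, and 2.61 and 2.78% in siDyskerin against siGAR1. Of the proteins of the box C/D particle none passed in any comparison. The 5 genes (FBL for fibrillarin, NOP56, NOP58, SNU13 and RRP9, the protein specific to U3) had median log2 fold changes of -0.05 in siDyskerin against siControl, 0.04 in siGAR1 against siControl and -0.10 in siDyskerin against siGAR1. RRP9 had the lowest values, -0.40 (adjusted p = 0.0164) in siDyskerin against siControl and -0.33 (0.0482) in siDyskerin against siGAR1, with -0.07 (0.71) in siGAR1 against siControl. FBL had -0.05 (0.727) and 0.04 (0.778) against siControl in siDyskerin and siGAR1, NOP56 had -0.13 (0.115) and -0.01 (0.948), NOP58 had 0.14 (0.316) and 0.25 (0.0927), and SNU13 had 0.04 (0.829) and 0.04 (0.83).

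Among 9 genes of box C/D assembly, PIH1D1 (log2 fold change -0.54, adjusted p = 0.00103) and RUVBL1 (-0.31, 0.00815) fell in siDyskerin against siControl. Both are parts of the R2TP chaperone complex, which loads the core proteins. The median over the 9 genes was -0.01 there and 0 passed in both other comparisons.

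U13 guides the acetyltransferase NAT10, and THUMPD1 is an RNA-binding adaptor of NAT10 known from the acetylation of transfer RNA. THUMPD1 rose in siDyskerin (0.43, adjusted p = 0.00262) and in siGAR1 (0.38, adjusted p = 0.00879), each against siControl, and had 0.04 (0.789) in siDyskerin against siGAR1. NAT10 had -0.04 (0.771) and 0.08 (0.495) against siControl.

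Of 39 genes of the small subunit processome, in which U3 acts, 1 passed higher and 1 lower in siDyskerin against siControl. In siGAR1 against siControl 1 passed higher and 0 lower, and in siDyskerin against siGAR1 0 and 2. HEATR1 rose in both knockdowns against the same 3 siControl libraries, by 0.85 on the log2 scale in siDyskerin (adjusted p = 2.24e-06) and 0.84 in siGAR1 (5.95e-06). TBL3 fell in siDyskerin against siControl (-0.51, 0.00137), and UTP18 (-0.38, 0.00468) and KRR1 (-0.51, 0.005) fell in siDyskerin against siGAR1. All 4 encode proteins that assemble on the precursor with U3, and the medians over the list were -0.03, 0.11 and -0.09 in the 3 comparisons. Of 21 genes of large-subunit RNA maturation, the process that needs U8, RRP1B fell in siDyskerin (-0.70, adjusted p = 1.33e-05 against siControl, and -0.51, 2.54e-04 against siGAR1). The RNA helicase gene DDX27 fell likewise (-0.34, 0.00351, and -0.36, 0.00288), and the list medians were -0.02, 0.02 and -0.03.

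Genes for the cap, transport and end processing of such RNAs numbered 22. In siDyskerin against siControl TOE1, a 3′-end deadenylase of small nuclear RNAs, fell (-0.42, adjusted p = 8.38e-04), as did LSM7 of the Lsm ring (-0.46, 0.00244) and the decapping enzyme gene DCP2 (-0.33, 0.00327). Against siGAR1, LSM7 (-0.57, 7.07e-04) and DCP2 (-0.37, 0.00217) fell in siDyskerin and NCBP2 of the nuclear cap-binding complex rose (0.30, 0.00658). In siGAR1 against siControl 0 of the 22 passed, and the list medians were 0.00, 0.02 and -0.02.

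Of 13 factors of small nuclear RNA promoters, ELL2 (-0.75, adjusted p = 6.93e-05) and SNAPC1 (-0.40, 0.00519) fell in siDyskerin against siControl. SNAPC1 is a subunit of the complex that binds these promoters, and ELL2 is an elongation factor. Against siGAR1, ELL2 (-1.04, 5.87e-06) and ELL (-0.44, 0.00764) fell in siDyskerin, and ELL2 was the single gene of all protein lists other than the targeted genes whose change exceeded 1 on the log2 scale. Of 14 subunits of Integrator, which cuts the ends of small nuclear RNAs, INTS5 fell in siDyskerin against siControl (-0.61, 0.00119) and INTS2 against siGAR1 (-0.34, 0.00648). The medians were -0.06, 0.04 and -0.10 for the promoter factors and -0.05, 0.06 and -0.13 for Integrator, and 0 genes of either list passed in siGAR1 against siControl.

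Other short RNA genes with promoters of their own were tested in 12 of 19 cases. Their medians were -0.11, 0.20 and -0.36 in siDyskerin against siControl, siGAR1 against siControl and siDyskerin against siGAR1, and RNU4-2, a gene of the spliceosomal U4 RNA, was the single one that passed (-0.92, adjusted p = 0.00964, in siDyskerin against siGAR1).

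Across the 9 libraries, the 3 genes most like the summed U3 copies by Pearson's correlation of log2 normalized counts were PPP2R2A (0.96), SMNDC1 (0.94) and SMIM19 (0.94). For SNORD118 they were LSM3 (0.98), GTF2B (0.97) and DCTN6 (0.96), and for SNORD13 they were RBM28 (0.99), the unnamed gene ENSG00000273658 (0.98) and SNORD14A (0.96). These are the highest of 18444 genes over 9 libraries in 3 groups, and describe these libraries only. Between the members the correlation was 0.63 for U3 and U8, 0.57 for U3 and U13, and 0.62 for U8 and U13, and all 3 RNAs shared the high values of siGAR1 replicate 1.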

How the data were processed

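Nuclear RNA of 9 U2OS samples (3 per group) was sequenced as paired ends of 50 bases after rRNA depletion. The authors trimmed reads with Trim Galore 0.6.4, removed rRNA and tRNA reads with Bowtie2 2.4.1 and quantified transcripts with Salmon 1.2.0 against GENCODE 27 (GRCh38) as a stranded library. The deposited values were Salmon's estimated counts (expected counts) and TPM per transcript, 1 table per library. How reads compatible with several transcripts were shared out is not given in the sources used here; 99.9996% of the estimated counts were whole numbers, and the near-identical U3 copies and U8 with TMEM107 are uncertain for that reason.

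Transcripts were matched by identifier to GENCODE 44 (195887 of 200401) and their counts summed per gene, rounded. Genes were filtered with filterByExpr, scaled by TMM and tested with edgeR 4.0.16 (quasi-likelihood, robust, 1 fit over all 9 libraries, Benjamini-Hochberg over 18444 genes); an adjusted p below 0.01 passed, and "past both limits" also needed an absolute log2 fold change above 1. The common biological coefficient of variation was 0.0886. Intervals of fold changes are normal intervals from the SE (95%). They are too narrow, because the quasi-likelihood test rests on few degrees of freedom, fewest for SNORD3C (prior 1.48). Ratios to other SNORD and to SNORA reads, and the TMEM107 transcripts without U8, were added after the data had been seen. Ratios were compared by exact permutation tests in scipy 1.17.1. Library totals limit the precision of low counts, and Poisson intervals cover counting error only. Each fit was repeated with DESeq2 1.42.0, with other scaling factors (RLE, or TMM over short noncoding RNAs), on unfiltered genes, on length-scaled counts, with a replicate block, on 2 groups at a time and without each library. RefSeq gave the U3 and U8 lengths, and the genome sequence was GRCh38. The members and gene lists were chosen with earlier results of these data known. Genes were named by rule: the members, other U3 copies, neighbours within 2 kb, the targeted genes, list members that passed (at most 4 per comparison), all box C/D core genes, NAT10 and THUMPD1, and the 3 genes most correlated with each RNA.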

Additional observations from a re-analysis of the deposited data

How the results depend on the processing

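Each of the 15 member fold changes was recomputed under 16 alternatives; 218 of the 240 values kept their sign and side of the threshold (2 of them without a DESeq2 adjusted p), 14 passed where the reported value did not, and 8 changed sign. Of these 8, 5 arose with factors from short noncoding RNAs, which shift all genes alike (the median of all genes by 0.42, -0.22 and 0.64), and 3 on leaving out a library. Without the low-count filter edgeR's prior degrees of freedom were infinite, against 1.48 to 7.96 for the members with it, so that the spread of each gene was replaced by the trend. There, passing values were -0.87 (SNORD3C) and -0.26 (summed U3) in siDyskerin against siControl. In siGAR1 against siControl they were 0.44 (SNORD3A), -0.41 (SNORD3C), 1.36 (SNORD118) and 0.39 (summed U3). In siDyskerin against siGAR1 they were -0.66 (SNORD3A), -0.46 (SNORD3C) and -0.65 (summed U3). Genes past both limits then numbered 347, 154 and 282 in these comparisons, against 173, 52 and 133 as reported.

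With factors from short noncoding RNAs, the values in siDyskerin against siControl were 0.22 (SNORD3A), 0.027 (SNORD13) and 0.16 (summed U3). In siDyskerin against siGAR1 they were 0.0036 (SNORD3A) and 0.17 (SNORD3C). Genes past both limits numbered 638, 86 and 1529, and length-scaled counts gave 34 in siGAR1 against siControl. Leaving out 1 library at a time gave -0.067 to 0.82 for SNORD118 in siDyskerin against siControl, the lowest without siDyskerin replicate 2. In siGAR1 against siControl the ranges were 0.24 to 0.63 (SNORD3A), -0.69 to 0.40 (SNORD3C) and -0.29 to 0.83 (SNORD13), with 34 to 55 genes past both limits. In siDyskerin against siGAR1 they were -0.84 to -0.45 (SNORD3A) and -0.83 to -0.45 (summed U3), where both also passed without siControl replicate 1 (-0.67 and -0.66), with 81 to 153 genes.

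Libraries with the same replicate number did not deviate together (correlations -0.07 to 0.10), and a replicate block gave -0.65 for SNORD3A in siDyskerin against siGAR1 (adjusted p = 0.0205) and changed no call. The 42 alternative ratios of SNORD118 and U3 reads to short noncoding RNA reads moved by less than the replicate SD, which is wide. For U3 this is a ratio and not a share, because the class leaves out SNORD3A and SNORD3C. On the log2 scale the SNORD118 share in siDyskerin against siControl was 0.50, and -0.052 without siDyskerin replicate 2 and 0.32 without siControl replicate 1. Against siGAR1 it was -0.80, and -1.35 without siDyskerin replicate 2 and -0.41 without siGAR1 replicate 1. The U3 ratio in siGAR1 against siControl was 0.37, and 0.046 without siGAR1 replicate 1 and 0.58 without siGAR1 replicate 2. In siDyskerin it was -0.59 against siGAR1, and -0.27 without siGAR1 replicate 1. Against siControl it was -0.23, and -0.14 without siDyskerin replicate 3 and -0.13 without siControl replicate 3. SNORD118 and SNORD13 are limited by their few reads.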
